A study of Homo sapiens with 60 samples.

Results

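The 30 Mb of the long arm of chromosome 6 from 90 to 120 Mb (GRCh37) were examined in peak lists of PC9, an established human lung adenocarcinoma line whose growth depends on mutant EGFR. A peak was counted when the midpoint of its boundaries lay between these ends, whatever its reproducibility score. By this rule 2283 of the 507426 peaks on chromosomes 1 to 22 and X were members: 901 of H3K27Ac, 713 of RAD21, 622 of PDS5A and 47 of IgG. The rest of chromosome 6 held 21417. The interval was chosen by its peak counts, which were known to be higher in wild-type cells grown under drug. The counts, share ratios, overlap shares and site shares that follow therefore describe that choice and carry no test.

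The peaks came from CUT&RUN, in which an antibody directs a nuclease to its target in intact nuclei and the released fragments are sequenced. Cells were wild type (WT), METTL7A knockout (KO), or knockout cells made to overexpress METTL7A with MYC and FLAG tags (Rescue). Each was untreated or had received osimertinib, an inhibitor of mutant EGFR, with a dose raised from 100 nM over 6 to 8 weeks. The labels do not say whether the knockout or the rescue is 1 clone, and by construction every Rescue sample also carries the knockout. METTL7A belongs to a family of methyltransferase-like proteins, and the study's title places it in a question about chromatin priming, resistance to kinase inhibitors and oncogene amplification.

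Acetylation of histone H3 at lysine 27 (H3K27Ac) marks active promoters and enhancers. RAD21 is the subunit that closes the cohesin ring, which holds sister chromatids together and extrudes chromatin loops. PDS5A binds that ring and acts in both its release from chromatin and its stable hold. IgG is the nonspecific antibody that gives the background of the assay. Among the genes of this stretch of chromosome 6 are PRDM1 and BACH2, transcriptional repressors of lymphocytes, FOXO3, a transcription factor under AKT control, HDAC2, a histone deacetylase, FYN and FRK, Src-related kinases, MCM9, a DNA repair helicase, and ROS1, a receptor kinase that is rearranged in some lung cancers. From CASP8AP2 to MCM9, RefSeq's order on GRCh38.p14 lists 109 of 20037 protein-coding genes, or 0.544%. That table is of another build than the peaks, so no gene was assigned to a peak.

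Each list joined the 2 replicates of its group, so a group gave 1 value. Error is therefore given as a 95% interval for counting (Wilson for shares, Katz's log interval for ratios), which leaves out biological and library variation. Read depth is not given by the lists. The IgG list of treated WT stood apart before the interval was considered: it held 7612 peaks, against 167 to 2703 in the other 5 IgG lists. The RAD21 and PDS5A lists of treated WT were also the longest of each target, with 38829 and 34781 peaks against 15525 and 14395 in untreated WT. The untreated Rescue PDS5A list was nearly as long, with 33598. For H3K27Ac the treated Rescue list was longer than that of treated WT, with 45234 peaks against 44124.

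Peaks of all 3 targets were most frequent in treated WT cells. For H3K27Ac the interval held 81 peaks in untreated WT, 324 in treated WT, 78 in untreated KO, 106 in treated KO, 175 in untreated Rescue and 137 in treated Rescue. These were 0.358%, 0.734%, 0.329%, 0.270%, 0.443% and 0.303% of their lists. The counting interval of treated WT (0.659% to 0.818%) lay above all 5 others, the nearest of which, untreated Rescue, ended at 0.513%.

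RAD21 had 56 peaks in untreated WT, 315 in treated WT, 82 and 63 in untreated and treated KO, and 99 and 98 in untreated and treated Rescue. Their shares were 0.361%, 0.811%, 0.431%, 0.356%, 0.401% and 0.372%. Apart from treated WT, the counting intervals of the RAD21 lists overlapped one another, from 0.278% at the lowest bound to 0.535% at the highest. PDS5A had 42, 250, 18, 57, 158 and 97 peaks in the same order, with shares of 0.292%, 0.719%, 0.195%, 0.311%, 0.470% and 0.357%. Its untreated Rescue list was thus the second richest, and its untreated KO list the poorest.

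IgG peaks, far fewer, were also most frequent in treated WT. There were 42 of 7612 in treated WT (0.552%, interval 0.408% to 0.745%), 2 of 1057 in untreated WT, 2 of 1051 in untreated Rescue and 1 of 896 in treated Rescue. Treated KO had 0 of 2703, which allows a share of up to 0.111%, and untreated KO had 0 of 167, which allows up to 1.80%. Of the 42 treated WT IgG peaks, 39 lay on a RAD21 peak and 39 on a PDS5A peak of the same cells. The same shares for IgG peaks elsewhere are not given here, so no more is read from these counts. In the interval, 12.7% of treated WT H3K27Ac peaks, 12.4% for RAD21 and 16.0% for PDS5A, met an IgG peak of the same cells, where the shares elsewhere were 15.04%, 17.5% and 19.3%. With every peak on an IgG peak of any of the 6 lists left out, the H3K27Ac share of treated WT over untreated WT was 2.404. That step took unequal parts of the interval's H3K27Ac peaks, 37.0% in untreated WT and 13.3% in treated WT. The higher ratio is thus not read as a gain over background. One IgG peak had a global irreproducible discovery rate (IDR, the expected share of peaks whose ranks do not agree between replicates) of 0.05 or less, at chr6:112408268-112409095 in treated WT.

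**Figure D1:**
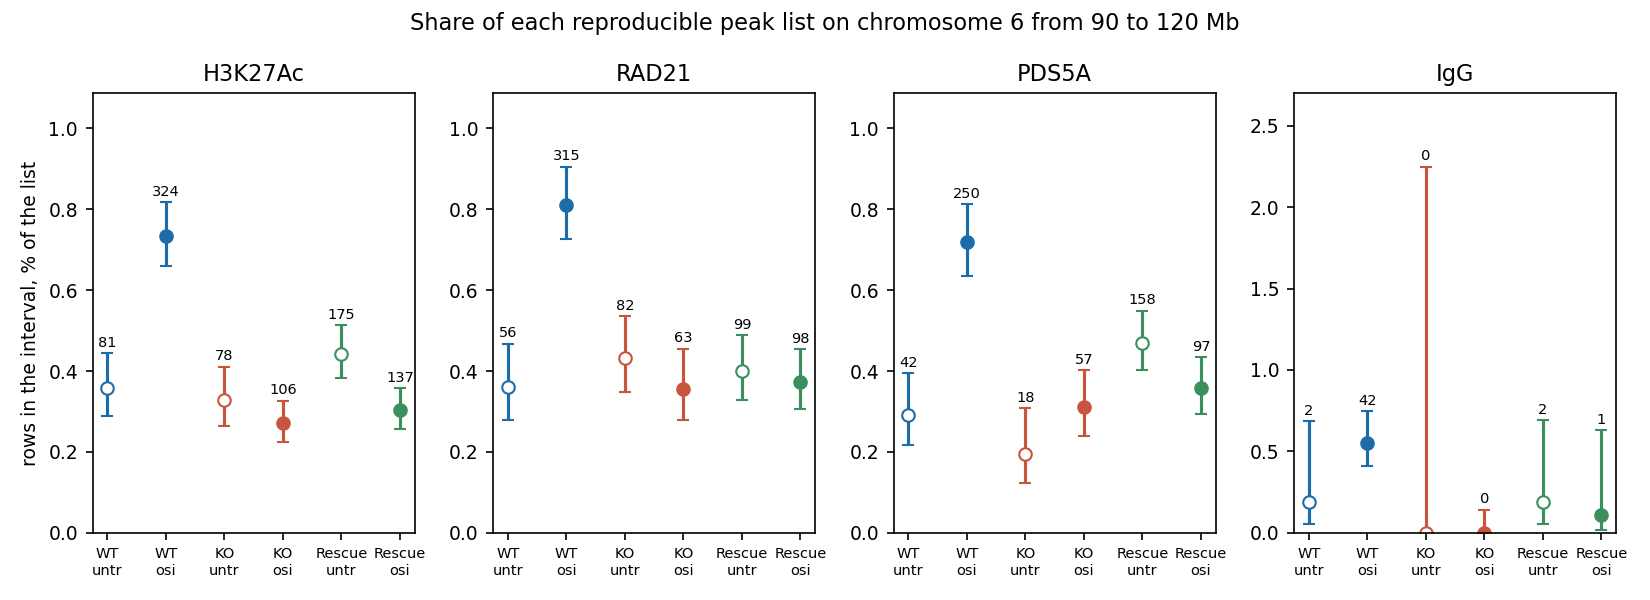
Share of each list, in percent, that fell on chromosome 6 from 90 to 120 Mb, in 4 panels by antibody, with a point per genotype (WT, KO, Rescue) and treatment (untr, untreated, open; osi, osimertinib, filled). Bars are Wilson 95% intervals, the numbers are peak counts, and the IgG panel has its own axis; treated WT is the highest point in every panel, from 0.552% for IgG to 0.811% for RAD21.

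Treated WT also had the highest share among the more reproducible peaks of each target, but with counting intervals that overlapped those of other lists. Of 152651 peaks whose global IDR was at most 0.05, 620 lay in the interval. H3K27Ac had 18 of these in untreated WT, 61 in treated WT, 14 and 20 in KO, and 64 and 45 in Rescue, so here the untreated Rescue list had the highest count and treated WT the highest share (0.597% against 0.443%). RAD21 had 10, 112, 22, 13, 32 and 36 in the same order, and PDS5A had 6, 77, 2, 8, 48 and 31. The counting interval of the treated WT share was 0.465% to 0.766% for H3K27Ac, where that of untreated Rescue ended at 0.565%. For RAD21 it was 0.559% to 0.808%, and for PDS5A 0.490% to 0.765%. Those of untreated KO ended at 0.620% and 0.797%. At this threshold, −log10 IDR in treated WT was 1.314 for the last H3K27Ac peak kept and 1.298 for the first left out.

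Under osimertinib the share was higher in WT for all 3 targets, and lower or within counting error in KO and Rescue. In WT the treated share was 2.05 times the untreated share for H3K27Ac (interval 1.61 to 2.62), 2.25 times for RAD21 (1.69 to 2.99) and 2.46 times for PDS5A (1.78 to 3.41). Among peaks whose IDR was at most 0.05 the PDS5A ratio was 1.79, with an interval of 0.783 to 4.11 that includes 1. In KO the ratios were 0.821 for H3K27Ac (0.613 to 1.10) and 0.826 for RAD21 (0.595 to 1.15), both with intervals that include 1. The KO ratio for PDS5A was 1.59 (0.938 to 2.70), from 18 and 57 peaks, and turned to 0.891 among peaks whose IDR was at most 0.05, where only 2 and 8 remained.

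Rescue cells had ratios of 0.684 for H3K27Ac (0.547 to 0.855), 0.929 for RAD21 (0.703 to 1.23) and 0.759 for PDS5A (0.590 to 0.977). Their H3K27Ac and PDS5A shares were thus lower under drug, while the RAD21 difference was within counting error. At an IDR of at most 0.05 the H3K27Ac and PDS5A ratios were 0.767 (0.524 to 1.12) and 0.791 (0.504 to 1.24), and both intervals include 1. The IgG ratio in WT was 2.92, from 42 and 2 peaks, with an interval of 0.707 to 12.03.

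Untreated KO and untreated WT differed within counting error for all 3 targets. The KO share over the WT share was 0.92 for H3K27Ac (0.675 to 1.25), 1.20 for RAD21 (0.852 to 1.68) and 0.668 for PDS5A (0.385 to 1.2). Under osimertinib the same ratio was 0.368 (0.296 to 0.458), 0.439 (0.335 to 0.575) and 0.432 (0.324 to 0.576). These ratios use the same treated WT lists as the WT drug ratios, so they are not separate evidence. For H3K27Ac, the treated lists had similar lengths, with 44124 peaks in WT and 39192 in KO, which put 324 and 106 of them here. For RAD21 and PDS5A the treated WT lists were longer than those of KO, with 38829 and 34781 peaks against 17687 and 18352.

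The treated Rescue shares lay near those of treated KO and below those of treated WT. Treated Rescue over treated KO was 1.12 for H3K27Ac (0.869 to 1.44), 1.05 for RAD21 (0.762 to 1.43) and 1.15 for PDS5A (0.829 to 1.59). Against treated WT, treated Rescue stood at 0.412 (0.338 to 0.503), 0.459 (0.366 to 0.576) and 0.497 (0.393 to 0.628). Without drug, Rescue exceeded KO for H3K27Ac, at 1.34 (1.03 to 1.76), and for PDS5A, at 2.41 (1.48 to 3.93). At an IDR of at most 0.05 these were 1.74 (0.976 to 3.10) and 1.56 (0.379 to 6.39), with intervals that include 1. The PDS5A value fell to 1.44 (0.793 to 2.63) when both lists were shortened to equal length. For RAD21 the untreated Rescue share was 0.930 of the KO share (0.694 to 1.24). Untreated Rescue over untreated WT was 1.61 for PDS5A (1.15 to 2.26), but 1.0 at an IDR of at most 0.05.

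Set among all 30 Mb tiles of the genome, the interval is peak-poor in every list of the 3 targets but those of treated WT. In untreated WT, 26 of 113 tiles had a lower H3K27Ac share, and the median tile held 0.738%. In treated WT, 52 of 113 tiles were lower, with a median of 0.807%. For RAD21 the counts were 20 in untreated WT and 57 in treated WT, and for PDS5A 18 and 55. Under drug, the WT lists thus reached the middle of the range, where treated KO had 18, 20 and 18 lower tiles and treated Rescue 20, 19 and 19.

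Among the 112 tiles with enough peaks (20 over both lists), 3 exceeded the interval's H3K27Ac ratio in WT, 1 its RAD21 ratio and 2 its PDS5A ratio, with 1 peak added to each count. Chromosome 3 from 60 to 90 Mb had the highest ratio for all 3 targets: 2.45, 2.82 and 3.57. The interval is therefore near one end of a spread and not alone there. The Rescue over WT ratio under osimertinib was lower here than in any other tile for all 3 targets. It was 0.414, 0.462 and 0.4998. The next lowest tiles had 0.422, 0.533 and 0.558, all inside the counting intervals of the ratios here. The KO over WT ratio was the lowest for RAD21 and second lowest for H3K27Ac and PDS5A. On chromosome 6 from 60 to 90 Mb, Rescue over WT was 0.425, 0.616 and 0.588, and KO over WT 0.407, 0.615 and 0.489. Low ratios were thus not confined to the interval.

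**Figure D2:**
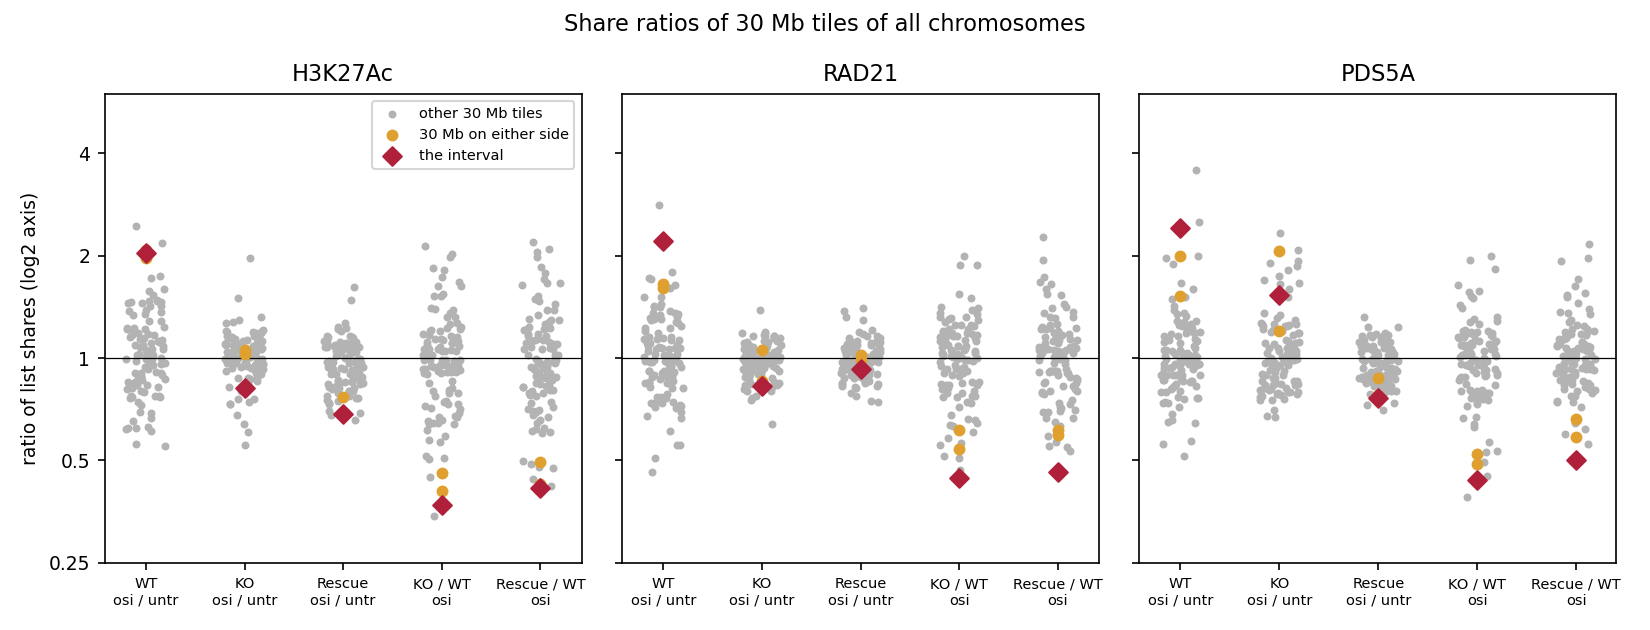
Ratio of list shares, on a log2 axis, for 30 Mb tiles of all chromosomes, in 5 comparisons for each target (osi, osimertinib; untr, untreated). Grey points are other tiles, amber points the 30 Mb on either side and red diamonds the interval, which lies near the top for WT under drug (2.03, 2.22 and 2.42 with 1 peak added) and at or near the bottom where KO or Rescue is set against WT.

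The higher share did not stop at the ends of the interval. With 1 peak added to each count, the WT drug ratio from 60 to 90 Mb was 1.97 for H3K27Ac (48 and 187 peaks untreated and treated), 1.65 for RAD21 and 1.99 for PDS5A. From 120 to 150 Mb it was 2.08, 1.60 and 1.52. The first 60 Mb differed: H3K27Ac had 1.46 from 0 to 30 Mb and 1.07 from 30 to 60 Mb, RAD21 had 1.11 and 0.987, and PDS5A had 0.993 and 0.955. The last tile, from 150 Mb to the end, had 1.28, 0.909 and 1.06. Over all of chromosome 6 outside the interval the ratio, with no peak added, was 1.36 (1.26 to 1.47), 1.14 (1.04 to 1.24) and 1.09 (0.998 to 1.19). Just inside and just outside the boundary at 90 Mb, treated WT had 34 and 43 H3K27Ac peaks per 5 Mb, and at 120 Mb 44 and 14. Untreated WT had 5 and 17 at 90 Mb, and 11 and 3 at 120 Mb. As shares of the WT lists, untreated and treated, these were 0.0221% and 0.0771% just inside 90 Mb and 0.0751% and 0.0975% just outside. At 120 Mb they were 0.0486% and 0.0997% inside and 0.0133% and 0.0317% outside. The difference was thus smaller just below 90 Mb and went on past 120 Mb.

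**Figure D3:**
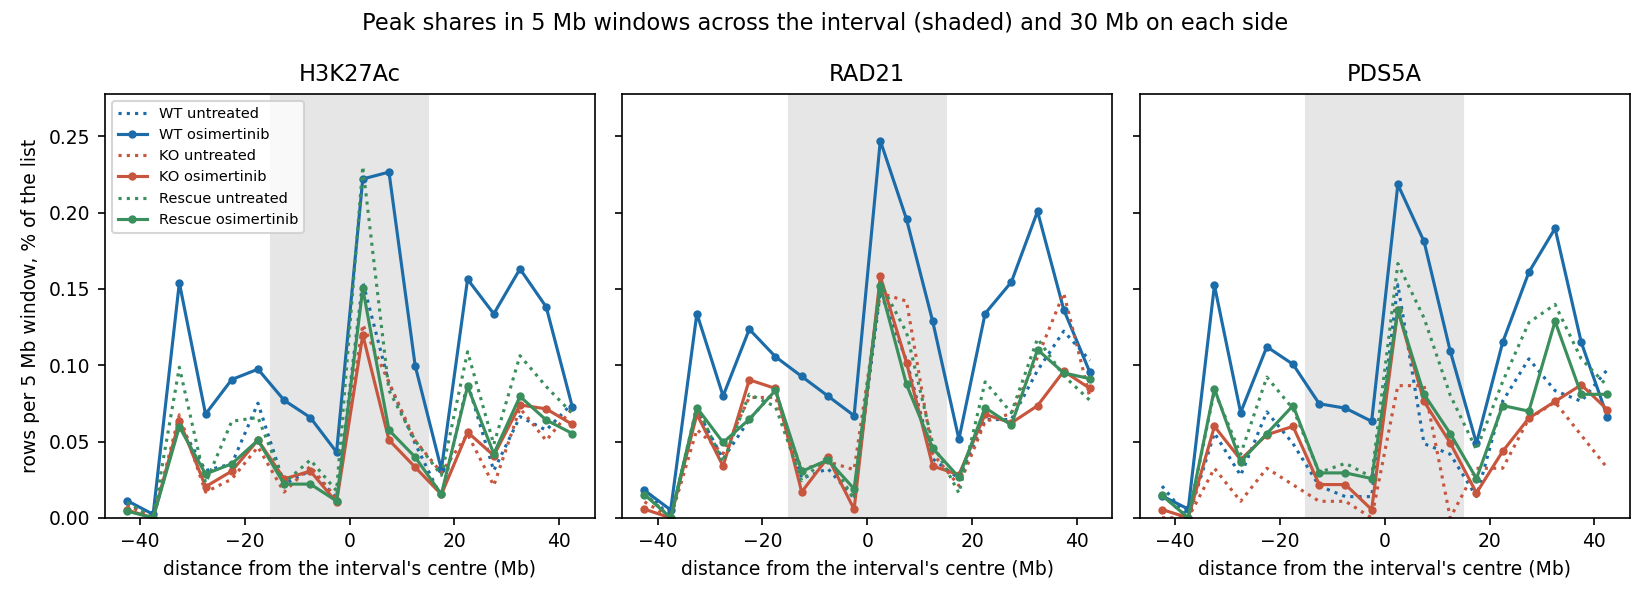
Peaks per 5 Mb window as a percentage of the list, against distance in Mb from the centre of the interval (shaded), for H3K27Ac, RAD21 and PDS5A, with solid lines for osimertinib, dotted lines for untreated cells and a color per genotype. Treated WT runs above the other 5 lists across most windows on both sides, and all lists rise just right of the centre, where treated WT reaches 0.222%, 0.247% and 0.219%.

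Within the interval, the rise in treated WT was spread over its length. In windows of 5 Mb, a size added after values were seen, all 6 could be compared between the WT lists. The treated share was at least 1.5-fold higher in 5 of 6 windows for H3K27Ac, where 18.1% of all windows of the genome were. It was so in 6 of 6 for RAD21 (17.6% of all windows) and 5 of 6 for PDS5A (13.5%). Treated KO was at least 1.5-fold lower than treated WT in 6 of 6 windows for each target, against 24.3%, 17.4% and 17.6% of all windows. Treated Rescue was so in 5, 6 and 6 of 6, against 26.3%, 17.2% and 12.1%. The rule used the same lists, so nothing is read from these counts beyond their spread along the interval.

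Windows of 1 Mb mostly held too few peaks for a ratio. With at least 20 peaks over both WT lists, 9 windows could be compared for H3K27Ac, of which 4 were 1.5-fold or more higher under drug (16.6% of all windows). For RAD21 it was 4 of 8 (12.1%), and for PDS5A 0 of 3 (10.4%). These are the peak-rich windows, none of which would have reached 20 without the treated WT peaks, and their median ratios of 1.45, 1.45 and 1.06 were below the ratios of the whole interval.

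Counted without that limit, treated WT had the most peaks of the 6 lists in 24 of 30 windows for H3K27Ac, 29 for RAD21 and 22 for PDS5A. It also had the most IgG peaks in all 16 windows that held any. Treated WT left 2, 1 and 1 windows empty for the 3 targets, where treated KO left 10, 10 and 11 and treated Rescue 7, 7 and 7. These window counts are not scaled to list length, and no such count over the whole genome is given here. A longer list can fill more windows, and the RAD21 and PDS5A lists of treated WT were the longest.

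H3K27Ac peaks were densest between 105 and 110 Mb in 5 of the 6 lists. That 5 Mb held 43.2% of the H3K27Ac peaks of untreated WT, 30.2% in treated WT, 38.5% and 44.3% in untreated and treated KO, and 52.0% and 49.6% in untreated and treated Rescue. In treated WT the next 5 Mb, from 110 to 115 Mb, held 100 H3K27Ac peaks against 98. Summed over the 6 lists, the densest 1 Mb of the interval was 109 to 110 Mb for H3K27Ac, with 9, 24, 5, 17, 25 and 21 peaks in untreated and treated WT, KO and Rescue. RAD21, summed alike, was densest in the same window, with 7, 26, 6, 6, 9 and 10, and PDS5A had 6, 17, 2, 5, 17 and 8 there. For RAD21, treated WT had more than 2 times the count of any other list in this window, while for H3K27Ac the untreated Rescue list had 1 peak more than treated WT. List by list the densest H3K27Ac window differed: it was 109 to 110 Mb in treated KO and treated Rescue, but 106 to 107 Mb in untreated WT (10 peaks), 112 to 113 Mb in treated WT (29) and 108 to 109 Mb in untreated Rescue (26). From 102 to 103 Mb there was no RAD21 or PDS5A peak in any list and 1 H3K27Ac peak, in treated WT.

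The H3K27Ac window that moved most was 112 to 113 Mb, with 5 peaks in untreated WT, 29 in treated WT, 6 in untreated KO and 0 in treated KO. Its share rose from 0.0221% to 0.0657% in WT and went from 0.0253% to 0 in KO. A count of 0 in the treated KO list allows a share of up to 0.00765%. For RAD21 and PDS5A the largest move in WT was from 99 to 100 Mb, where 1 RAD21 peak became 14 and 0 PDS5A peaks became 12. In treated Rescue the largest fall in H3K27Ac share was from 106 to 107 Mb, with 21 peaks untreated and 11 treated.

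Most peaks of untreated WT cells were found again under drug, and most treated WT peaks were additional to them. Of the untreated WT peaks in the interval, 96.3% met a treated WT peak for H3K27Ac, 96.4% for RAD21 and 95.2% for PDS5A (overlap of at least 1 bp), where the shares elsewhere were 84.2%, 92.3% and 92.7%. Among peaks whose IDR was at most 0.05 the H3K27Ac share was 66.7% (12 of 18), and 62.9% elsewhere. In the other direction, 23.8% of treated WT H3K27Ac peaks met an untreated WT peak (19.5% to 28.7%), against 42.5% of the treated WT peaks elsewhere. RAD21 gave 16.8% (13.1% to 21.4%) against 36.6%, and PDS5A 15.6% (11.6% to 20.6%) against 37.7%. At an IDR of at most 0.05 these were 19.7%, 8.93% and 7.79%, against 31.6%, 19.5% and 11.99% elsewhere, and the PDS5A interval (3.62% to 16.0%) then includes the share elsewhere.

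Treated KO and treated Rescue peaks lay largely within the set of treated WT. The rule chose an interval rich in treated WT peaks, so the overlap shares below describe that choice too. Of treated KO peaks, 92.5% met a treated WT peak for H3K27Ac, 98.4% for RAD21 and all 57 for PDS5A, where the shares elsewhere were 66.9%, 92.9% and 90.7%. For treated Rescue it was 82.5%, 96.9% and 92.8%, and elsewhere 59.1%, 84.1% and 80.9%. Conversely, 29.0% of treated WT H3K27Ac peaks met a treated KO peak, against 58.5% elsewhere. For RAD21 it was 19% against 41.5%, and for PDS5A 22% against 47.0%. Rescue met 35.2%, 30.8% and 36.0% of the treated WT peaks here, against 60.7%, 56.8% and 64.0% elsewhere. Among peaks whose IDR was at most 0.05, Rescue met 54.1% of treated WT H3K27Ac peaks (41.7% to 66.0%) and 56.3% elsewhere, so this difference was then within counting error. KO met 10.7% of RAD21 and 10.4% of PDS5A peaks at that threshold, against 23.1% and 26.6% elsewhere.

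Overlapping peaks of the 6 lists of a target were joined into sites: 366 for H3K27Ac, 318 for RAD21 and 278 for PDS5A. Of these, 50, 36 and 12 were present in all 6 lists. They were 13.7%, 11.3% and 4.32% of the sites here, against 19.7%, 21.99% and 13.3% in the rest of the genome. Sites of the treated WT list alone, which the choice of the interval favors, numbered 169 for H3K27Ac, 188 for RAD21 and 108 for PDS5A. They made up 53.7% of the treated WT sites of the interval for H3K27Ac (48.1% to 59.1%), where the share over the whole genome was 31.2%. For RAD21 it was 60.5% (54.9% to 65.7%), against 32.6%, and for PDS5A 43.5% (37.5% to 49.8%), against 23.0%. No other list had many sites of its own: untreated Rescue had 20, 2 and 22, treated Rescue 7, 2 and 2, treated KO 3, 0 and 0, untreated KO 0, 1 and 0, and untreated WT 2, 0 and 0. For untreated Rescue these were 11.7% of its H3K27Ac sites and 14.1% of its PDS5A sites, close to the 11.004% and 14.2% of the rest of the genome. For H3K27Ac, treated Rescue had 5.22% of its sites to itself and treated KO 3.0%, where the shares elsewhere were 17.6% and 10.999%.

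**Figure D4:**
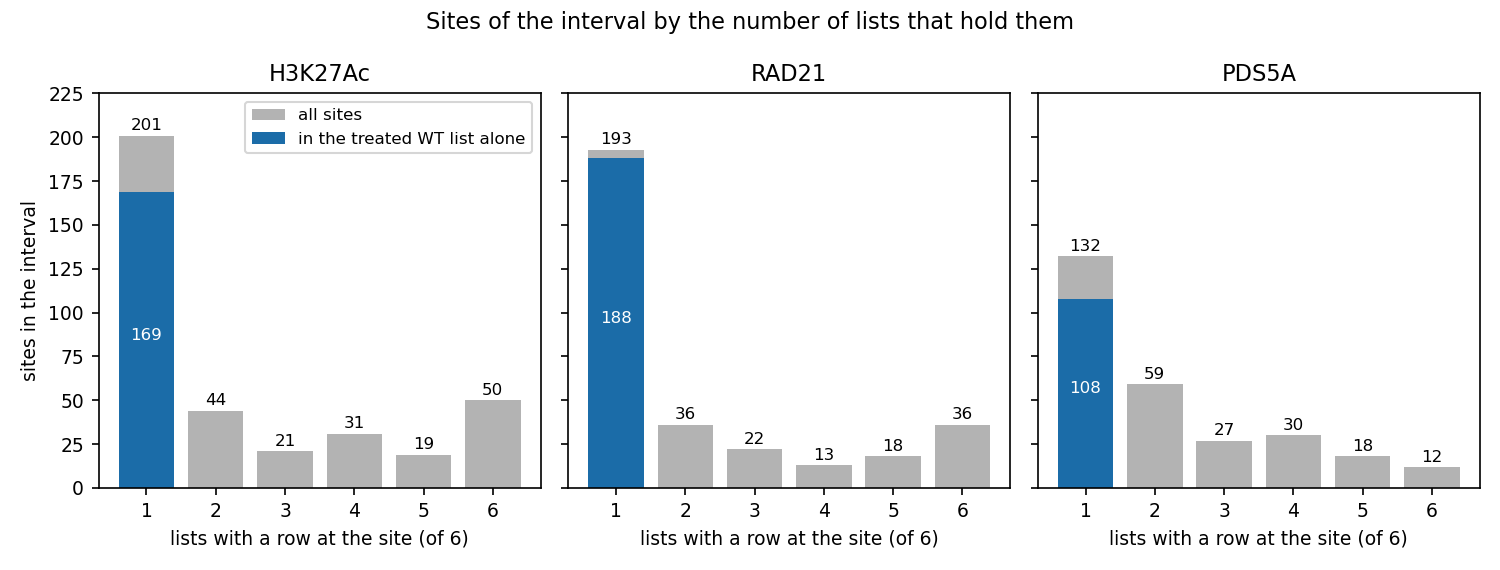
Number of sites in the interval (bars) by how many of the 6 lists of a target hold a peak there, with the sites of the treated WT list alone in blue. Sites of a single list are the largest class for all 3 targets (201, 193 and 132), and 169, 188 and 108 of them belong to treated WT.

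Sites of treated WT alone were weaker than the others. By the authors' −log10 p, taken as the lower of the 2 replicates, their median was 6.29 for H3K27Ac against 10.2 for the remaining treated WT sites. The same medians were 8.04 against 15.6 for RAD21 and 6.71 against 12.7 for PDS5A. Of them, 6, 33 and 10 had an IDR of 0.05 or less, and 3, 4 and 2 met an IgG peak of any cells. The former were 10%, 29.5% and 13.0% of treated WT sites at that threshold, against 9.60%, 11.2% and 4.95% elsewhere. Of the 188 RAD21 sites, 102 also had a treated WT PDS5A peak, and 80 of the 108 PDS5A sites had a treated WT RAD21 peak. Treated WT H3K27Ac was present at 71 of the RAD21 sites. The IgG and cross-target counts of such sites elsewhere are not given here, so no more is read from them.

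In treated WT most PDS5A peaks lay on cohesin. Of PDS5A peaks, 84.4% met a RAD21 peak (84.0% elsewhere), and 67.6% of RAD21 peaks met a PDS5A peak (75.0% elsewhere). In untreated KO, 15 of 82 RAD21 peaks met 1 of the 18 PDS5A peaks, or 18.3%, against 39.0% elsewhere. H3K27Ac met 51.1% of RAD21 peaks in treated WT (58.2% elsewhere), 61.9% in treated KO (68.8%) and 73.5% in treated Rescue (65.9%).

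The strongest cohesin site was the same in every list. RAD21 at chr6:107996138-107997197 ranked first of the interval's RAD21 peaks in all 6 lists, with a lower −log10 p of 60.6 in untreated WT, 356 in treated WT, 75.6 and 65.3 in KO, and 157 and 175 in Rescue. PDS5A at chr6:107996073-107997081 also ranked first in all 6, with 56.5, 298, 16.8, 51.2, 208 and 296. These are the authors' own values and serve to order peaks within a list only. No IgG peak met this site. An H3K27Ac peak was found there in treated WT and treated Rescue, with a lower −log10 p of 8.05 and 8.93.

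A further site with both proteins in all 6 lists and no IgG peak was chr6:112364119-112365857 for RAD21 and chr6:112364127-112366052 for PDS5A. Its RAD21 peak ranked between 2 and 4 in every list. At chr6:109702337-109705050, RAD21 was present in all 6 lists together with PDS5A and H3K27Ac, but this site also met an IgG peak. Its rank was 2 of 56 in untreated WT, 3 of 315 in treated WT, 5 of 82 in untreated KO and 2 in both Rescue lists, but 52 of 63 in treated KO.

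The leading H3K27Ac site of all 6 lists was chr6:111279250-111280497, which ranked first in 5 lists and second in untreated Rescue. The next were chr6:109702334-109704585 and chr6:108615184-108617109. All 3 met IgG, RAD21 and PDS5A peaks. Of the 50 H3K27Ac sites of all 6 lists, 28 met IgG, for which no share elsewhere is given here.

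For RAD21, the strongest sites of the treated WT list alone were chr6:118150718-118151227 with a lower −log10 p of 63.7, chr6:115866118-115867023 with 54.7 and chr6:114663272-114665096 with 44.6. All 3 met a PDS5A peak and none met IgG. For H3K27Ac they were chr6:91594721-91596014 (19.3), chr6:96553735-96554604 (16.5) and chr6:112306864-112308146 (16.3), which met no RAD21, PDS5A or IgG peak of any list. For PDS5A they were chr6:117770186-117771174 (24.8) and chr6:101841077-101842330 (22), both on RAD21. In untreated Rescue, the strongest PDS5A site of that list alone was chr6:109718488-109718842 (25.9), which met no RAD21 peak.

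Few sites were lost in WT under drug: those with an untreated WT peak and no treated one numbered 3 for H3K27Ac, 1 for RAD21 and 2 for PDS5A, against 242, 259 and 209 with a treated peak only. The latter were 76.8%, 83.3% and 84.3% of treated WT sites, and such sites were also the majority in the rest of the genome, at 58.3%, 63.7% and 62.1%. The lost sites were 3.95%, 1.89% and 4.88% of untreated WT sites, and 14.1%, 7.53% and 7.07% elsewhere. The RAD21 site lost was chr6:109159094-109159833, with a lower −log10 p of 3.49, and it was also found in treated KO. Rescue cells went the other way for H3K27Ac and PDS5A: 55 and 73 sites had an untreated peak only and 18 and 12 a treated peak only. For RAD21 it was 22 and 25. The untreated-only sites were 32.2%, 23.7% and 46.8% of untreated Rescue sites for H3K27Ac, RAD21 and PDS5A, and 21.4%, 19.3% and 29.1% elsewhere. The treated-only sites were 13.4%, 26.0% and 12.6% of treated Rescue sites, and 29.3%, 24.4% and 12.6% elsewhere. In KO the H3K27Ac counts were 13 untreated only and 38 treated only, those of RAD21 27 and 9, and those of PDS5A 5 and 42. The treated-only sites were 38.0%, 15.3% and 76.4% of treated KO sites, and elsewhere 49.0%, 22.4% and 58.2%. The untreated-only sites were 17.3%, 35.1% and 27.8% of untreated KO sites, and elsewhere 15.2%, 27.8% and 18.1%.

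Some of the sites gained in WT under drug were also found in the other cells. Treated KO held 12.8% of those of H3K27Ac, 7.72% of RAD21 and 13.4% of PDS5A, where the shares in the rest of the genome were 30%, 19% and 24.5%. Treated Rescue held 18.2%, 17.4% and 24.4%, against 32.4%, 35.2% and 44.3%. Untreated Rescue, which had no drug, held 24.4%, 17.8% and 42.6% of them, and 32.7%, 33.3% and 56.2% elsewhere. For RAD21 it held 46 of them and treated Rescue 45. No test of these differences was possible with 1 list a group.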

How the data were processed

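CUT&RUN was done on 60 PC9 samples, of which 48, in 24 groups of 2, gave 24 lists; 12 with an H2A antibody are not analysed here. Per the submitters' processing notes, tools included Bowtie2 2.4.2, MACS2 2.2.7.1, SAMtools 1.16, bedtools 2.30 and deepTools 3.5.1, on GRCh37. Their settings, the control used for peak calling and the version of the IDR program are not given in the sources used here. A deposited list joins peaks matched between both replicates, with the authors' −log10 p of each replicate (at least 3) and the −log10 global IDR. No source says that replicates were separate cultures. With no read totals in the files, depth is unknown, and intervals cover counting error only.

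Peaks were assigned by midpoint, shares taken over chromosomes 1 to 22 and X, and lists compared by overlap of 1 bp (Python 3.11.15, pandas, scipy). Overlap and window counts were checked against simulated lists. The members, the lists compared and the rules were chosen with earlier results of these data known. Windows and sites named are those with most and fewest peaks, the largest moves, and the strongest in all 6 lists, in 1 list or lost or gained under drug. Alternatives were an IDR of 0.05, peaks on IgG left out, covered length, equal list lengths, windows of 0.5, 2 and 5 Mb, and 50% overlap. Sequences are not printed, since no genome of GRCh37 was used here.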

Additional observations from a re-analysis of the deposited data

Results flagged for a closer look

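Responses to osimertinib of 2 targets ran in opposite directions, with both counting intervals clear of 1. For H3K27Ac the treated share of the interval over the untreated share was 2.05 in WT and 0.684 in Rescue, so that the WT ratio was 3.0 times the Rescue ratio. For PDS5A it was 2.46 in WT and 0.759 in Rescue, a 3.25-fold difference between the ratios. At an IDR of 0.05 or less the Rescue ratios were 0.767 (0.524 to 1.12) and 0.791 (0.504 to 1.24), whose intervals include 1, as did that of PDS5A in WT (1.79, 0.783 to 4.11). Each ratio came from 1 list per group, so the difference between genotypes was not tested.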

How the results depend on the processing

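Of the 27 share ratios of H3K27Ac, RAD21 and PDS5A between treatments or genotypes, 14 had a counting interval clear of 1, and none of these turned to the other side of 1 under the alternatives run. The 6 of Rescue over WT among the 27 were added after values were seen. Of the 14, some had intervals that include 1 at an IDR of 0.05 or less. These were the drug ratios of H3K27Ac in Rescue (0.767) and of PDS5A in WT (1.79) and Rescue (0.791). The others were untreated Rescue over KO for H3K27Ac (1.74) and PDS5A (1.56), and untreated Rescue over WT for PDS5A (1.0). With lists of equal length, the PDS5A intervals included 1 for Rescue under drug (0.829) and for untreated Rescue over KO (1.44) and over WT (1.19). Covered length left all 27 within their counting intervals. With an IDR of 0.05 or less, 22 stayed within theirs. The exceptions were Rescue over WT for H3K27Ac under drug (0.412 became 0.569) and for PDS5A without drug (1.61 became 1.0), Rescue over KO under drug for H3K27Ac (1.12 became 1.45), the KO drug ratio of PDS5A (1.59 became 0.891) and KO over WT under drug for PDS5A (0.432 became 0.319). With peaks on IgG left out, 25 stayed, while KO over WT under drug became 0.274 for H3K27Ac and 0.312 for PDS5A. This step takes a larger part of the treated KO peaks of the interval than of the treated WT ones. The same holds for untreated WT, with 37.0% of its H3K27Ac peaks taken against 13.3% in treated WT. With lists of equal length, 26 stayed, and untreated Rescue over KO for PDS5A became 1.44. The WT drug ratio was 2.404 for H3K27Ac with peaks on IgG left out and 1.69 at the stricter IDR. Median WT window ratios for H3K27Ac were 1.45 in windows of 1 Mb and 2.31 in windows of 2 Mb, where fewer windows fall short of 20 peaks. At an overlap of 50%, all 108 overlap shares stayed within their intervals, and at the stricter IDR 72 of 99 moved beyond theirs. No paired analysis was possible because each list joins both replicates, and for the same reason no replicate could be left out. Low counts widen the intervals: untreated KO held 18 PDS5A and 0 IgG peaks here. Read depth is not given by the lists.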
